A study of Mus musculus with 8 samples.

Results

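Hepatocytes export large amounts of albumin, clotting factors and lipoproteins, and these proteins fold in the endoplasmic reticulum (ER). When unfolded proteins accumulate there, the ER-resident sensors IRE1, PERK and ATF6 start the unfolded protein response. IRE1 removes a short intron from Xbp1 mRNA so that the transcription factor XBP1 is made, and XBP1 and ATF6 drive genes for chaperones and for the removal of misfolded proteins. The 10 genes described here are members of this program: the transcription factor Xbp1, the luminal chaperones Hspa5, Hsp90b1, Hyou1 and Calr, the disulfide isomerase Pdia4, the smaller folding factors Dnajb9, Sdf2l1 and Creld2, and the degradation factor Herpud1. They were taken by gene symbol from 41388 deposited features, with earlier results of these data known, and each was present in every library. All 10 were among the 12270 genes that exceeded 1 CPM (counts scaled to the library total) in at least 3 libraries and entered the test.

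The livers came from db/db mice, which lack a working leptin receptor and become obese and diabetic. Littermates on the C57B/6J strain label were randomised at 5 weeks of age and injected through the tail vein with an adenovirus. The 4 AdGFP mice received a virus encoding green fluorescent protein, and the 4 AdNAMPT mice a virus encoding nicotinamide phosphoribosyltransferase, the enzyme of NAD salvage. Both groups therefore carried the db/db mutation and a virus, and all mice were 10 weeks old when sampled. Overexpression lasted 4 to 5 weeks according to the design text. The study's paper gives days rather than weeks after virus delivery, for adipose tissue of these db/db groups and for adenovirus in its methods. The duration behind the liver samples is therefore not settled. The genotype label reads control for AdGFP and NAMPT overexpression for AdNAMPT, and the promoter of the vectors is not given in the sources used here. The question was whether hepatic NAMPT altered liver gene expression in diabetic mice, and here it was asked of the ER folding genes.

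Libraries held 12006713 to 19879814 counts, with 18153 to 19831 features detected. Values are given as CPM scaled by TMM factors unless stated otherwise. Those factors were 0.947 to 0.977 in AdGFP and 1.01 to 1.05 in AdNAMPT and did not overlap between groups, and AdNAMPT replicate 1 had the lowest sample weight in the limma fit, 0.440. Nampt itself, which the vector was meant to raise, was at 107.3 to 159.5 CPM in AdGFP and 120.3 to 171.7 CPM in AdNAMPT, with a log2 fold change of 0.08 (SE 0.15, limma adjusted p = 0.915, 95% confidence interval of the fold 0.838 to 1.33). The counts thus gave no detectable sign of the transferred gene, and AdGFP and AdNAMPT below are the groups as labelled. The tissue label was checked against its markers: all 10 hepatocyte markers were tested, led by albumin. Whether counting used strand is not stated.

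The promoters of several of these genes carry the ER stress response element (ERSE), in which the letters CCAAT, bound by the factor NF-Y, lie 9 bases from CCACG, where ATF6 or XBP1 binds. Promoters of 250 bases before to 50 after the start were available from RefSeq (GRCm38.p6) for 9 of the 10 genes, all but Hyou1. CCAAT followed by any 9 bases and then CCACG, searched on both strands, was found in 4 of these 9 promoters and in 39 of the 32851 promoters of the table (0.1187%). The sites are printed 5′ to 3′, with the matched letters in capitals and in the orientation in which the motif reads from CCAAT. The capitals are alike because the search required them, while the 9 bases between them and the flanks differ from site to site.
Hspa5, chr2:34772020-34772048, plus strand: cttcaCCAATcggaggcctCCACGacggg
Hsp90b1 upstream site, chr10:86705633-86705661, minus strand: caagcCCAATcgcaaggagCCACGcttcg
Hsp90b1 downstream site, chr10:86705528-86705556, plus strand: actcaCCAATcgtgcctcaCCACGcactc
Calr, chr8:84847070-84847098, plus strand: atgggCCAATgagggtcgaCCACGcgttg
Creld2, chr15:88819515-88819543, minus strand: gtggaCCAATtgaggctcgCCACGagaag

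The element began 65 bases before the start of Hspa5, 126 before that of Creld2 and 162 before that of Calr, and Hsp90b1 had one copy in each orientation, beginning 212 and 107 bases before its start. It read in the direction of the gene in Hspa5 and in the upstream site of Hsp90b1, and against it in the others. The Hspa5 site lay inside the deposited span of that gene, which begins further upstream than the RefSeq start used here. Pdia4 and Herpud1 held the element without its last base, CCAAT followed by 9 bases and CCAC, which occurred in 6 of 9 members and 0.3653% of all promoters, the full elements included. Herpud1 also held ERSE-II, in which ATTGG and CCACG are separated by 1 base (1 of 9 members, 0.03653% of promoters). They are shown to contrast the spacing of the 2 forms. The shortened element of Herpud1 ended 1 base before the start, and its printed sequence stops there without the bases that follow.
Pdia4, shortened element, chr6:47813597-47813625, plus strand: gaccaCCAATcacgggctgCCACtcggtt
Herpud1, shortened element, chr8:94386406-94386428, plus strand: ctcagCCAATggatggcagCCAC
Herpud1, ERSE-II, chr8:94386368-94386396, plus strand: cgggcgctgATTGGgCCACGttggacact

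The core of the XBP1-type element, TGACGTGG, was found in 0 of the 9 windows and in 0.6758% of all promoters. CCACG alone, which is contained in ERSE and ERSE-II, was in 8 of 9 members but also in 32.77% of all promoters. These matches describe letters only.

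Levels of different genes were compared per exonic length, as RPKM (CPM per kilobase of exon, mean over 8 livers). Herpud1 was highest at 177.1 RPKM, followed by Hspa5 at 148.5, Calr at 137.2, Hsp90b1 at 97.9 and Pdia4 at 80.2. These 5 genes ranked between percentiles 94.7 and 97.3 of the tested genes. Xbp1 stood at 40.2 RPKM, and then came Dnajb9 at 17.4, Hyou1 at 14.1, Creld2 at 10.2 and Sdf2l1 at 4.37, the last close to the middle of all tested genes (percentile 54.5). The order of neighbours held in all 8 livers for 6 of the 9 steps. Herpud1 exceeded Hspa5 in 7 of 8 livers, Hspa5 exceeded Calr in 6, and Dnajb9 exceeded Hyou1 in 6, so these neighbours were not separated in every liver. The 4 genes with a full ERSE thus ranged from 10.2 to 148.5 RPKM.

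**Figure D1:**
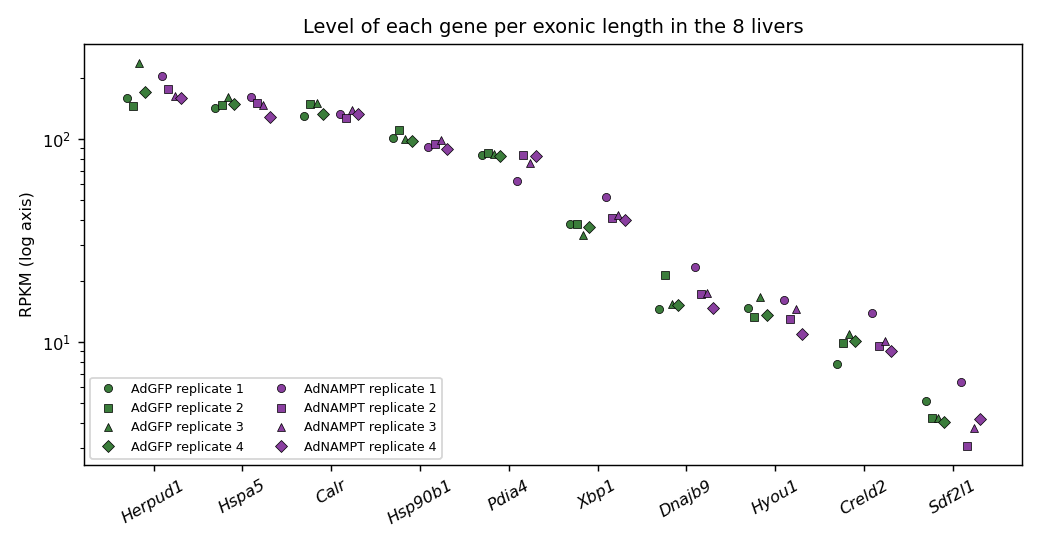
RPKM of each of the 10 genes (log axis) in each liver, AdGFP in green and AdNAMPT in purple, with one marker shape per replicate number. Herpud1, Hspa5 and Calr lie close together at the top, and Sdf2l1 is lowest in every liver, at 3.08 to 6.39 RPKM.

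None of the 10 genes passed the test between groups (0 of 10 with a limma adjusted p not above 0.05, against 0.277% of all tested genes). The limma estimate was lower in AdNAMPT for 8 genes and higher for Xbp1 and Dnajb9. The median log2 fold change of the 10 genes was -0.15, against 0.00 over all 12270 genes, of which 49.6% were lower. Scaled by library total alone, without TMM factors, the median of all genes moved to 0.09. That of the 10 genes moved to -0.07, with 7 lower and 3 higher. With the median of all genes subtracted, the median of the 10 genes was -0.16 under both scalings. For fold changes, here and below, the library total is the sum over the tested genes. For groups that do or do not overlap, it is the deposited total over all features. Highly expressed genes in general leaned the same way: of the 1222 other genes in the tenth of genes highest in RPKM, 62.4% were lower, with a median of -0.04. At an unadjusted p under 0.05, 3 of the 10 genes were lower and 0 higher, where 5.04% of all genes were lower and 4.65% higher. Of the 1222 other genes in the tenth highest in RPKM, 140 were lower and 32 higher at that threshold. The edgeR quasi-likelihood test and the DESeq2 Wald test likewise called 0 of the 10, each with 3 at an unadjusted p under 0.05. For 3 genes every AdNAMPT liver lay below every AdGFP liver, against 2.70% of all genes, and for 0 genes above, against 2.09%. With library totals these counts became 0 lower (0.856% of all genes) and 1 higher (7.36% of all genes), the latter being Xbp1.

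The 3 genes whose groups did not overlap were Hsp90b1, Calr and Pdia4. Hsp90b1 encodes endoplasmin, the HSP90-type chaperone of the ER lumen. The AdGFP livers, in the order of replicates 1 to 4 used throughout, had 429.1, 486.6, 419.8 and 410.3 CPM of it, and the AdNAMPT livers 355.0, 380.0, 384.6 and 361.4 CPM. The lowest AdGFP liver was above the highest AdNAMPT liver, and the spread within AdNAMPT was narrow. Means were 436.5 ± 34.3 and 370.3 ± 14.3 CPM (SD, n = 4 each). The log2 fold change was -0.20 (SE 0.07, 95% confidence interval -0.37 to -0.04), a fold of 0.868, with a limma unadjusted p of 0.0186 and an adjusted p of 0.444. Exons of Hsp90b1 (ENSMUSG00000020048, chr10:86690209-86705509, GRCm38, minus strand) overlap 3 other annotated features, 1810014B01Rik on the other strand and Gm15344 and Gm25745 on the same strand, so its count is less certain than those of genes without overlap.

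Calr encodes calreticulin, the lectin chaperone that binds calcium and newly made glycoproteins. The AdGFP livers had 394.0, 467.0, 454.4 and 401.9 CPM and the AdNAMPT livers 369.3, 367.1, 387.3 and 384.4 CPM. All AdNAMPT livers lay within a narrow band under the lowest AdGFP liver, whereas AdGFP replicates 2 and 3 were well above replicates 1 and 4. Group means were 429.3 ± 36.7 and 377.1 ± 10.3 CPM (SD, n = 4 each), with a log2 fold change of -0.17 (SE 0.08, interval -0.34 to 0.00, limma unadjusted p = 0.0541, adjusted p = 0.527).

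Pdia4, a protein disulfide isomerase of the ER lumen, had the tightest AdGFP values of the 10 genes, 218.3, 229.8, 219.7 and 214.8 CPM, a coefficient of variation of 2.91%. The AdNAMPT livers were at 148.7, 206.6, 182.8 and 205.5 CPM. All 4 were lower than any AdGFP liver, but AdNAMPT replicates 2 and 4 came close to them and replicate 1 lay far below. The estimate on the log2 scale was -0.19 (SE 0.09, interval -0.38 to -0.00, limma unadjusted p = 0.0470, adjusted p = 0.513). The microRNA gene Mir704 overlaps Pdia4 on the same strand.

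Hspa5 encodes BiP, the HSP70-type chaperone that holds unfolded chains and keeps the stress sensors inactive. It was the gene with the most reads, 6805 to 10335 per library. AdGFP livers were at 522.3, 562.2, 590.8 and 546.3 CPM and AdNAMPT livers at 548.6, 529.2, 502.2 and 452.3 CPM. The groups overlapped, with 2 AdNAMPT livers below the AdGFP range and 2 inside it. Its log2 fold change was -0.13 (SE 0.08, interval -0.31 to 0.04, limma adjusted p = 0.643), and the interval of the fold was 0.808 to 1.03.

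Hyou1 encodes a large HSP70-related protein that exchanges the nucleotide of BiP. It was at 111.7, 104.1, 125.8 and 102.4 CPM in AdGFP and at 112.9, 93.4, 101.8 and 79.2 CPM in AdNAMPT. AdNAMPT replicates 2 to 4 were below every AdGFP liver and replicate 1 was inside the AdGFP range. Its log2 fold change was -0.24 (SE 0.10, interval -0.47 to -0.02), with a limma unadjusted p of 0.0351 and an adjusted p of 0.492. Without AdNAMPT replicate 1, Hyou1 and Sdf2l1 joined the genes whose groups did not overlap, which made 5 of 10 against 4.60% of all genes.

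**Figure D2:**
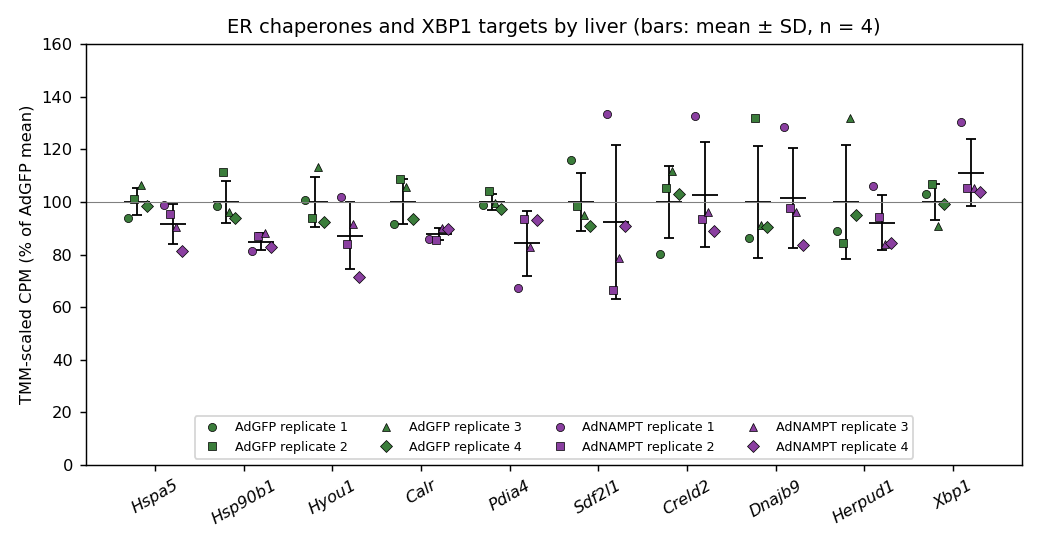
TMM-scaled CPM of each gene as a percentage of its AdGFP mean in every liver, with horizontal bars at the group mean and error bars of 1 SD (n = 4 each). The 4 AdNAMPT livers of Hsp90b1, Calr and Pdia4 all lie under the AdGFP livers, while AdNAMPT replicate 1 (circle) is the highest AdNAMPT point for 7 of the 10 genes.

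The smaller folding factors did not separate the groups. Sdf2l1, a BiP cofactor, had only 50 to 85 reads per library and had 5.95, 5.06, 4.87 and 4.66 CPM in AdGFP against 6.85, 3.41, 4.03 and 4.65 CPM in AdNAMPT. AdNAMPT held both the highest and the lowest liver, a coefficient of variation of 31.6% against 11.1% in AdGFP. The log2 fold change was -0.30 with a wide interval of -0.68 to 0.08 (limma adjusted p = 0.631), and it was -0.19 without sample weights and -0.13 with edgeR or DESeq2.

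Dnajb9, a J-domain cochaperone that is a classic XBP1 target, was at 28.3, 43.2, 29.96 and 29.7 CPM in AdGFP and at 42.1, 32.1, 31.5 and 27.5 CPM in AdNAMPT. One liver in each group stood above the others and the remaining 6 were close together. The log2 fold change was 0.02 (interval -0.27 to 0.31, limma adjusted p = 0.981). Creld2, an ER protein induced by ER stress, was at 11.2, 14.6, 15.5 and 14.3 CPM in AdGFP and at 18.5, 13.0, 13.4 and 12.4 CPM in AdNAMPT. Its log2 fold change of -0.04 (interval -0.32 to 0.25, limma adjusted p = 0.959) changed sign with the method. For both genes the intervals of the fold, 0.8287 to 1.24 and 0.800 to 1.19, allow differences of either sign.

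Herpud1 encodes a membrane protein that organises the ubiquitin ligase complex for misfolded ER proteins. It was at 389.2, 370.1, 577.0 and 416.1 CPM in AdGFP and at 464.3, 412.2, 367.6 and 370.4 CPM in AdNAMPT. A single high liver, AdGFP replicate 3, set most of the spread, and the others of both groups were intermingled. The log2 fold change was -0.14 (SE 0.14, interval -0.44 to 0.16, limma adjusted p = 0.792), and it was 0.01 without that liver.

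Xbp1 was at 129.3, 134.3, 114.1 and 124.7 CPM in AdGFP and at 163.8, 132.2, 132.1 and 130.3 CPM in AdNAMPT. AdNAMPT replicates 2 to 4 were nearly equal and lay just under the highest AdGFP liver, and replicate 1 stood well above all others. Means were 125.6 ± 8.58 and 139.6 ± 16.2 CPM (SD, n = 4 each), with a log2 fold change of 0.12 (SE 0.08, interval -0.06 to 0.29, limma adjusted p = 0.678). Without AdGFP replicate 2 the groups of Xbp1 no longer overlapped and AdNAMPT was higher, as were 3.88% of all genes. A count per gene adds the spliced and the unspliced Xbp1 mRNA, so the activity of IRE1 cannot be read from it.

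**Figure D3:**
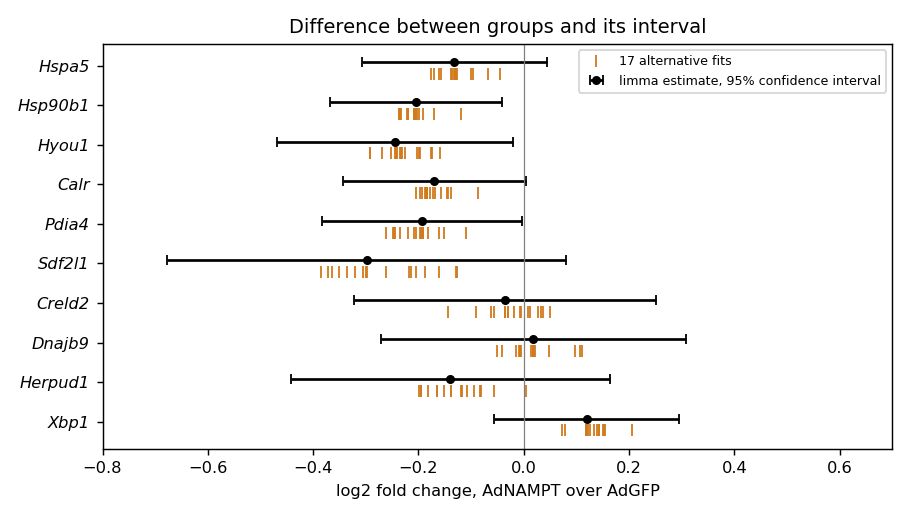
Log2 fold change of each gene, AdNAMPT over AdGFP, with its 95% confidence interval from limma (black) and the estimates of 17 alternative fits (orange ticks). Intervals of Hsp90b1, Hyou1 and Pdia4 end just below 0, those of the other 7 genes include 0, and the ticks of Creld2, Dnajb9 and Herpud1 fall on both sides of 0.

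The 10 genes did not vary as a single block between livers. AdNAMPT replicate 1 was the highest liver of its group for 7 genes and the lowest for 2, Hsp90b1 and Pdia4. In AdGFP, replicate 2 was highest for 5 genes and replicate 3 for 4. After each gene was centred on its group means, 31 of the 45 gene pairs had a positive Pearson correlation over the 8 livers and 12 reached 0.5, with a median of 0.22. That median was 0.05 without AdNAMPT replicate 1, with 25 pairs positive. The pair with the highest value was Hspa5 and Hyou1 (r = 0.78, rho = 0.74, and r = 0.70 without AdNAMPT replicate 1), and the lowest was Sdf2l1 and Pdia4 (r = -0.79, rho = -0.45, and r = -0.36 without it). Pdia4 was negative with 7 of the 9 other genes. All genes of a liver share 1 library and its scaling, so these correlations describe 8 libraries and no more.

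**Figure D4:**
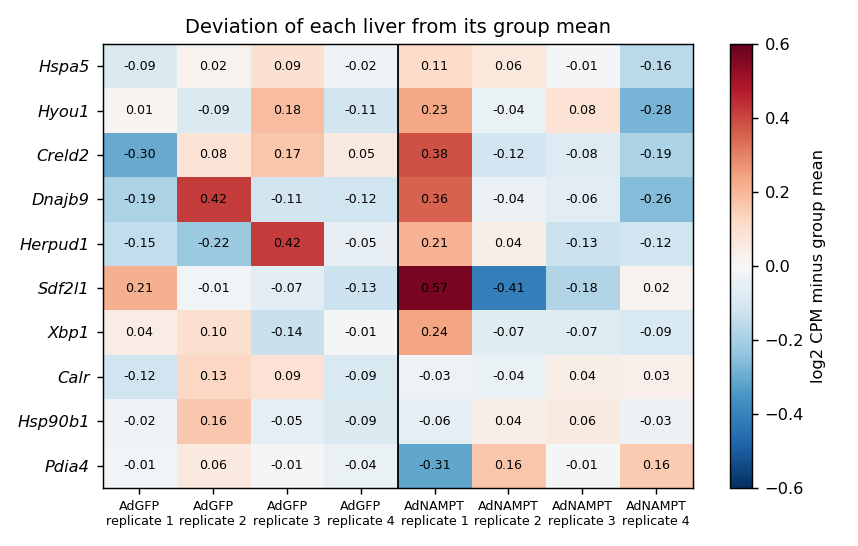
Deviation of each liver from its own group mean in log2 CPM (colour and printed value) for the 10 genes in rows and the 8 livers in columns. AdNAMPT replicate 1 is above its group mean for 7 genes, up to 0.57 for Sdf2l1, and below it for Pdia4 by -0.31.

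The mean of the 10 centred and scaled genes was then compared with the other 12260 tested genes over the 8 livers. The most alike were Zfp523 (r = 0.98), Mib1 (r = 0.98), Rce1 (r = 0.98), Cog7 (r = 0.97), Cage1 (r = 0.97) and Slc1a5 (r = 0.97), and the least alike were Fancb (r = -0.97), Entpd6 (r = -0.97) and Hjurp (r = -0.96). A correlation of at least 0.9 was reached by 64 of the 12260 genes and one of at most -0.9 by 49. The genes named above are thus the extremes of many comparisons over only 8 libraries. Manf, an ER-resident factor that binds BiP, was named after its value was seen (r = 0.95). Median correlations were 0.51 for ER-associated degradation genes (n = 21), 0.40 for translocation and glycosylation genes (n = 29) and 0.37 for other ER folding genes (n = 23), against -0.00 over all genes. They were 0.29 for the PERK and ATF4 arm (n = 10), 0.27 for cytosolic chaperones (n = 14), 0.26 for the sensors (n = 12), -0.03 for ER export genes (n = 21) and -0.15 for mitochondrial chaperones (n = 10). The feeding, clock and cell type lists ranged from -0.37 for endothelial markers to 0.02 for the single acinar marker tested.

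The other genes of the pathway were read as fixed lists. The median log2 fold change of all genes was 0.00 with TMM factors and 0.09 by library total. Counts of lower and higher genes by library total, here and below, are to be read against that shift. No gene of any list below passed the adjusted threshold in limma or edgeR, and DESeq2 passed 1, the Kupffer cell marker Vsig4. At an unadjusted p under 0.05 in limma, 5.04% of all genes were lower and 4.65% higher. Among 23 other ER folding genes 3 were lower and 2 higher. The counts were 1 lower of 21 in degradation, 3 lower of 29 in translocation and glycosylation and 1 lower of 21 in export. They were 0 of 12 sensors and 2 of 10 in the PERK and ATF4 arm, the latter higher. Among 14 cytosolic chaperones 3 were lower and 1 higher, and among 10 mitochondrial chaperones 1 was lower. Of 23 other ER chaperones and folding enzymes, 0 passed the adjusted threshold, and 17 were lower and 6 higher with TMM factors. By library total 7 were lower and 16 higher. The median log2 fold change of the list was -0.05 and 0.03 under these scalings. With the median of all genes subtracted, the list median was -0.05 under both. Pdia5, another disulfide isomerase, had the smallest p of that list, at 17.5 ± 2.64 CPM in AdGFP against 12.3 ± 1.68 in AdNAMPT (SD, n = 4 per group, log2 fold change -0.53, limma adjusted p = 0.225), and its groups overlapped. Pdia3, the isomerase that works with calreticulin, was lower in all 4 AdNAMPT livers than in any AdGFP liver, but overlapped by library total (-0.18, limma adjusted p = 0.503, chosen after its values were seen). Txndc11, a thioredoxin-domain protein of the ER, went the other way without overlap (0.23, limma adjusted p = 0.435), and Tmx1, a membrane-bound thioredoxin, was at -0.15 (limma adjusted p = 0.493).

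Of 29 tested genes for translocation into the ER and N-glycosylation, 22 were lower and 7 higher with a median log2 fold change of -0.08, or 15 and 14 by library total. For 4 of them (2.70% of all genes) no AdNAMPT liver reached the lowest AdGFP liver, but by library total this held for 1, Srp72 (0.856% of all genes): the signal recognition particle proteins Srp72 (-0.22, limma adjusted p = 0.318) and Srp14 (-0.16, adjusted p = 0.493), the signal peptidase subunit Spcs3 (-0.22, adjusted p = 0.506) and the oligosaccharyltransferase subunit Stt3a (-0.14, adjusted p = 0.534). Of 21 tested ER export genes, 15 were lower and 6 higher with a median of -0.04, but 5 and 16 by library total. The cargo receptor for clotting factors, Lman1, was at 340.3 ± 15.7 CPM in AdGFP against 301.4 ± 7.999 in AdNAMPT (SD, n = 4 per group, -0.19, limma adjusted p = 0.426), without overlap here but with overlap by library total, while Lman2 (-0.12) and the coat protein Sec31a (-0.09) overlapped.

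ER-associated degradation genes were balanced, 11 lower and 10 higher of 21 tested with a median of -0.01, but 4 and 17 by library total. The values of Faf2, which recruits the extracting ATPase, the ubiquitin-conjugating enzyme Ube2j2 and the membrane protein Derl1 were -0.16, 0.19 and 0.10 (limma adjusted p of 0.513, 0.519 and 0.649). The sensors and their partners were 7 higher and 5 lower of 12 with a median of 0.02, or 8 and 4 by library total. The smallest p in that list belonged to Mbtps1 (-0.12, limma adjusted p = 0.552), the protease that first cleaves ATF6, followed by Atf6b (-0.23) and Mbtps2 (-0.23), the second protease.

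In the PERK and ATF4 arm, 7 of 10 tested genes were lower and 3 higher, or 5 and 5 by library total. Atf3, a stress-induced transcription factor, had the largest estimate of any chaperone or stress list, 0.838 ± 0.229 CPM in AdGFP against 1.63 ± 0.411 in AdNAMPT (SD, n = 4 per group, log2 fold change 1.09, limma adjusted p = 0.228), at a level close to the filter. Ppp1r15a, which restores translation, was at 0.34 (limma adjusted p = 0.492). Chaperones outside the ER were read for comparison. Of 14 tested cytosolic chaperones and their regulators, 11 were lower with a median of -0.13, or 10 by library total with a median of -0.05, and they included Stip1 (-0.20, limma adjusted p = 0.417) while Bag3 was at 0.36 (limma adjusted p = 0.357). Of 10 mitochondrial chaperones and proteases, 6 were lower with a median of -0.04, or 4 by library total, Afg3l2 at -0.19 and Hspd1 at -0.11 having the smallest p.

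**Figure D5:**
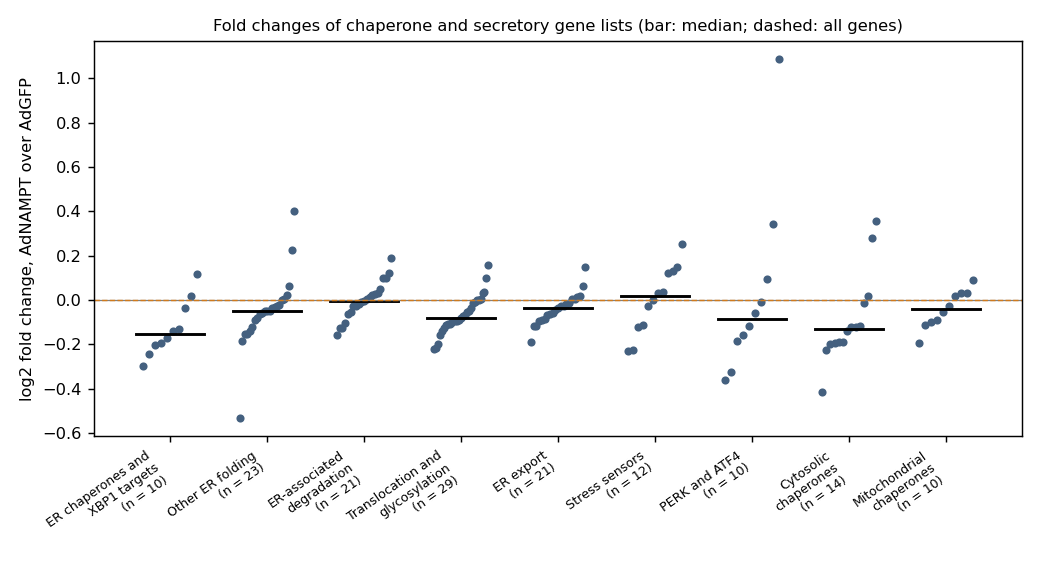
Log2 fold change, AdNAMPT over AdGFP, of every tested gene in each list, with a black bar at the list median and a dashed line at the median of all genes. The 10 ER chaperones and XBP1 targets have a median of -0.15 and the cytosolic chaperones of -0.13, while degradation genes and sensors centre near 0 with this TMM scaling and the highest point is Atf3 at 1.09.

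Genes sharing the ERSE were a further way to look beyond the 10. Of 37 genes with the full element, 15 were tested, 11 of them lower and 4 higher with a median log2 fold change of -0.06, but 6 and 9 by library total with a median of 0.03. None was called, and 1 (Hsp90b1) had a limma unadjusted p under 0.05. Without the 4 members, 7 of 11 were lower with a median of -0.05, but 3 by library total. They include the calnexin gene Canx (-0.06), the cochaperone Dnajc3 (-0.06), the isomerase Pdia6 (-0.15) and the ubiquitin ligase Syvn1 (-0.01), which also stand in the lists above. Of 8 tested genes with ERSE-II, 3 were lower and 5 higher, or 2 and 6 by library total.

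In bulk liver, fewer cells of a type and less RNA per cell cannot be told apart, and other cell types and the feeding state were therefore set beside these values. Kupffer cell markers were lower in AdNAMPT for 10 of 10 genes under both scalings, 0 of them called in limma and 3 at an unadjusted p under 0.05, with a median of -0.31 and a summed level of 362.5 to 462.4 CPM in AdGFP and 255.4 to 429.1 CPM in AdNAMPT, lowest in AdNAMPT replicate 1. Vsig4 (-0.51) and Timd4 (-0.83) led that list. Their part in the chaperone values was not tested. Plasma cells and pancreatic acinar cells, which are rich in ER, left little trace: 5 of 10 plasma cell markers and 9 of 10 acinar markers stayed below 1 CPM in every liver, and Tnfrsf17, Cpa1 and Amy2a5 were at 0 in all 8. The plasma cell sum, 341.6 to 401.6 CPM in AdGFP and 231.2 to 338.5 CPM in AdNAMPT, came almost wholly from Sdc1 (-0.28, limma adjusted p = 0.440), which hepatocytes also express, with Ighm next by p (0.45, adjusted p = 0.745), and the acinar sum was 5.65 to 8.05 and 5.64 to 10.4 CPM, with Cela1 the only gene tested (0.17, adjusted p = 0.816).

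Endothelial markers summed to 332.6 to 372.7 CPM in AdGFP and 327.6 to 381.7 CPM in AdNAMPT, stellate markers to 510.8 to 544.7 and 461.3 to 526.8 CPM, and bile duct markers to 31.5 to 49.7 and 32.2 to 48.7 CPM. The log2 fold changes with the smallest p in these lists were those of the endothelial genes Egfl7 (0.45, limma adjusted p = 0.198) and Gpr182 (-0.21, adjusted p = 0.589), the stellate genes Rgs5 (-0.40, adjusted p = 0.361) and Pdgfrb (0.33, adjusted p = 0.382) and the bile duct genes Sox9 (0.81, adjusted p = 0.487) and Krt19 (-0.37, adjusted p = 0.793). Hepatocyte markers were lower for 8 of 10 genes, or 5 by library total, with a median of -0.10 and Ahsg (-0.44) and Cps1 (-0.27) first by p. Of 16 genes that follow feeding and insulin, 10 were higher with a median of 0.19. Pck1, of gluconeogenesis, was at -0.49 (limma adjusted p = 0.425). Clock genes were 8 lower and 5 higher of 13, or 5 and 8 by library total, with Nr1d2 at -0.29 (limma adjusted p = 0.312) and Per2 at 0.27 (limma adjusted p = 0.431). The share of counts from mitochondrial rRNA was 1.77% to 2.56% in AdGFP and 0.863% to 1.62% in AdNAMPT, and that of Gm42418 was 0.996% to 2.25% and 0.200% to 0.233%. The part of feeding, sampling time and rRNA content in the chaperone values was not tested.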

How the data were processed

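Liver RNA of 8 mice was sequenced by the authors as single short reads, aligned with STAR 2.4.0b to GRCm38 and counted per gene with featureCounts 1.4.5. Ribo-Zero is named in the labels, but poly-A selection in the study's methods. The deposited counts are raw whole reads per feature. The deposited CPM values are counts scaled to the library total. The deposited RPKM values divide CPM by kilobases of exon. Recomputing both from the counts gave the same values.

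Following the study, 355 ribosomal RNA features were left out, as were genes not above 1 CPM in at least 3 libraries, leaving 12270 genes. Counts were scaled with TMM (edgeR 4.0.16) and fitted with limma 3.58.1 (voomWithQualityWeights, lmFit, eBayes, group only, R 4.3.3). Benjamini-Hochberg adjusted p over all genes of at most 0.05 was the threshold. Log2 CPM for deviations used a prior count of 2. Libraries held 12006713 to 19879814 counts, so 3 counts equal 0.151 to 0.250 CPM, which covers counting error only. The study describes the samples as separate mice, 4 per group.

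Groups came from the sample titles. Symbols came from GENCODE M21 (40340 of 41388 features matched), coordinates of genes from the deposited files, and promoters from RefSeq (GRCm38.p6, 9 of 10 genes). Named genes were the 10 members, Nampt, the 2 or 3 genes of each list with the smallest p, and the 6 most and 3 least correlated with the members. A result that this rule would name is not reported here. The members and lists were chosen with earlier results of these data known. Alternatives were edgeR's quasi-likelihood test, DESeq2 1.42.0, no sample weights, other scalings and filters, thinned counts, a replicate block and each library left out. The routines were tested on simulated data. Figures used matplotlib 3.10.9 under Python 3.11.15.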

Additional observations from a re-analysis of the deposited data

Results flagged for a closer look

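Of 20 sets of 4 livers examined, the 10 genes in each of the 2 groups, 3 held a liver far from the rest by Dixon's 95% criterion for the gap over the range, where chance gives about 1. Xbp1 was at 163.8 CPM in AdNAMPT replicate 1 and at 130.3 to 132.2 CPM in the other AdNAMPT livers, a gap of 0.944 of the range. Dnajb9 was at 43.2 CPM in AdGFP replicate 2 and at 28.3 to 29.96 CPM in the other AdGFP livers (0.890). Creld2 was at 18.5 CPM in AdNAMPT replicate 1 and at 12.4 to 13.4 CPM in the other AdNAMPT livers (0.8293). Xbp1 and Creld2 share that library, which also had the fewest counts, 12006713, and the lowest sample weight, 0.440. The part of depth in these values was not tested.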

How the results depend on the processing

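None of the 10 genes passed the adjusted threshold in any of 17 alternative fits, and the smallest adjusted p was 0.221 (Hsp90b1, DESeq2 Wald test). The direction reversed in 13 of 170 estimates, and never for 7 of the genes. With single libraries left out, Herpud1 ran from -0.20 to 0.0051 (positive without AdGFP replicate 3), Dnajb9 from -0.050 to 0.11 and Creld2 from -0.14 to 0.027. Dnajb9 became -0.0090 with the replicate block. Creld2 became 0.035 with DESeq2, 0.032 with edgeR, 0.049 with library size only (which moved the median of all genes to 0.086) and 0.012 without sample weights. Over all genes 34 were called, 75 by the DESeq2 Wald test and 28 to 38 with single libraries left out. Among the fixed lists 0 genes were called, 1 with DESeq2 (Vsig4), 1 with the replicate block and 0 to 1 with single libraries left out (Pdia5 without AdGFP replicate 3). Members with all AdNAMPT livers lower numbered 3 (2.70% of all genes), but 0 by library total (0.856% of all genes). With single libraries left out they numbered 3 to 5, against 3.82% to 5.16% of all genes. The count of 5 arose without AdNAMPT replicate 1, against 4.60% of all genes. Members with all AdNAMPT livers higher numbered 0 (2.09% of all genes), but 1 (Xbp1) by library total (7.36% of all genes). With single libraries left out they numbered 0 to 1. The count of 1 was Xbp1 without AdGFP replicate 2, against 3.88% of all genes. These overlap counts were added after seeing the data, and the causes were not tested. Same-numbered livers correlated at 0.23, -0.05, 0.21 and 0.01 in their deviations, and differently numbered livers at -0.30 to 0.24. With so few pairs, these values cannot tell whether the numbers pair the mice. The replicate block gave 41 calls over all genes and 0 members.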
